A study of Mus musculus with 15 samples.

Results

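The genes described here are 10 mouse genes of iron handling and metal storage: Slc40a1, Slc11a1, Tfrc, Fth1, Ftl1, Hmox1, Steap4, Mt1, Mt2 and Slc39a14. They were taken by name, as the rows of the expression table whose Ensembl identifier, with its version removed, belongs to 1 of these symbols. All 10 were found, among 17712 genes measured. The study injected MC38 tumours, formed by a mouse colon carcinoma cell line under the skin of C57BL/6 mice, and sequenced their polyadenylated RNA 24 h later. Vehicle, which was buffered saline with DMSO and glucose, went into 3 tumours. BO-112, a nanoparticle that carries poly I:C, a mimic of viral double-stranded RNA, went into 4 tumours at 50 µg. DMXAA, which activates the mouse STING protein, went into 4 tumours at 100 µg, and the last 4 tumours received both agents at these amounts. Every tumour, vehicle tumours included, received an injection of 100 µL and carried the same cell line, so the groups describe 1 tumour model at 1 time after a single injection. The animals' age is not given in the labels.

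Iron enters most cells as transferrin iron through the transferrin receptor and, in other chemical forms, through metal transporters of the cell surface. Iron that is not used at once is held inside ferritin, a hollow shell built of heavy and light chains, or leaves the cell through ferroportin. Haem oxygenase frees iron from haem, and metallothioneins are small, cysteine-rich proteins that bind zinc and copper. Macrophages are the main cells that recycle iron from red cells, and during inflammation they are known to hold it back.

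Levels are given in CPM, the read count scaled to the library's size, and comparisons of level between genes are made per kilobase of transcript. Changes are log2 fold changes with their standard error (SE), from a linear model of limma over all 15 tumours. A gene was called where limma's p-value was under 0.05 after Benjamini-Hochberg adjustment over the 17712 genes. The libraries held between 12725316 and 19660511 reads. The reads behind a member in 1 library ran from 25 for Steap4 to 118419 for Fth1.

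Libraries also differed in other ways, some of them across the treatment groups and some following the groups in part or in full. The summed level of 11 measured skeletal muscle markers was 174 CPM in vehicle tumour 2, 556 CPM in BO-112 tumour 1, 935 CPM in DMXAA tumour 1 and 483 CPM in DMXAA tumour 3, against 2.36 to 18.6 CPM in the other 11. The 10 adipocyte markers summed to 377 CPM in BO-112 tumour 2 and to 407, 250 and 111 CPM in DMXAA tumours 2, 1 and 3, and 137 CPM in tumour 3 with both agents, against 59.4 to 85.0 CPM elsewhere. In DMXAA tumour 2 the 10% of genes with the shortest transcripts lay 0.64 above the typical library on the log2 scale and the longest 10% lay below it (-0.61), and in DMXAA tumour 3 these values were 0.43 and -0.36. Of 10 colon carcinoma epithelium markers 5 were measured, and the cell adhesion gene Epcam stood at 1.94 ± 0.730 CPM (SD, n = 3) in vehicle tumours. These 5 markers summed to 31.4 to 87.6 CPM in vehicle tumours and to 9.09 to 13.7 CPM with BO-112. They did not move as 1: with BO-112, 1 of the 5 was called higher and 2 lower. Of all genes, 7.64% were called higher and 4.31% lower in that comparison. The 12 macrophage markers summed to 3996 to 4628 CPM in vehicle tumours, 3916 to 5095 CPM with BO-112, 3752 to 7092 CPM with DMXAA and 3704 to 4586 CPM with both agents. In RNA from whole tumours, fewer cells of a type and less RNA per cell cannot be told apart.

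The metallothionein promoters are shown because metals are known to drive these genes through short repeated sites, the metal response elements, whose letters can be read directly. The sequences come from RefSeq (build GRCm38.p6) and run from 250 bases before the transcription start to 50 bases after it, 5′ to 3′ on the plus strand. Capitals mark matches to the core of the metal response element, searched as TGCACNC or TGCGCNC on both strands. The Mt1 window is chr8:94178839-94179138 and the Mt2 window is chr8:94172368-94172667.
Mt1: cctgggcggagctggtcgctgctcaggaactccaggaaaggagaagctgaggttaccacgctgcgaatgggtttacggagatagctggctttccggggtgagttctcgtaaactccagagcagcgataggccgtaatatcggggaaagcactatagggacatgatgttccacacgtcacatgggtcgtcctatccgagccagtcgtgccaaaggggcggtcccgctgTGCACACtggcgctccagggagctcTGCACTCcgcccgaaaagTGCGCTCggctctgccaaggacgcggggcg
Mt2: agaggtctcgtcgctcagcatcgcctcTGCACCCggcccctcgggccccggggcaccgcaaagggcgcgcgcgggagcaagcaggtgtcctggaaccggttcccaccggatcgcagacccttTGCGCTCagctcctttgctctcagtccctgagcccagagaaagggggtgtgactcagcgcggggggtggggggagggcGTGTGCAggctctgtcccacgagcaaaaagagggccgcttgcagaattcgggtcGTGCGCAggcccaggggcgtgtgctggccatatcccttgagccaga

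Positions here are counted from the start that RefSeq gives for each window. Other starts of the metallothionein genes were not examined, and matches outside the windows were not counted. The Mt1 window held 3 matches, at 23 bases before the start and at positions 3 and 21 counted from the start as 1. The Mt2 window held 4, at 223, 128 and 50 bases before the start and at position 5 after it. Of 32851 promoters of this length, 25.7% held at least 1 match, 1.97% at least 3 and 0.518% at least 4. Windows were found for 7 members, 9 windows in all, because Tfrc and Fth1 have 2 each. No window was found for Hmox1, Slc40a1 or Slc39a14, so these genes were not searched. Besides the metallothioneins, 1 Tfrc window held 2 overlapping matches, and the windows of Slc11a1, Fth1, Ftl1 and Steap4 held none. Among the 9 windows, the antioxidant response element core, searched as TGACNNNGC, was found in that of Mt2 alone, and 12.4% of promoters hold it. It lay 79 bases before the start and apart from the metal matches. The STAT site core, searched as TTCNNNGAA, was found in the Steap4 window alone, 116 bases before the start, and 8.30% of promoters hold it. The interferon response element core, searched as GAAA, any 2 bases and GAAA again, was in none of the 9 windows and in 3.44% of promoters. These matches describe letters only, and binding was not measured.

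With BO-112, 7 of the 10 genes rose and none fell. They were the ferritin chains Fth1 and Ftl1, Hmox1, Mt1, Mt2, Slc11a1 and Slc39a14, and each had all 4 BO-112 tumours above all 3 vehicle tumours. Of all genes measured, 11.9% were called in this comparison, 7.64% higher and 4.31% lower, and 18.1% had BO-112 tumours wholly above vehicle tumours. Beside these calls, the 10 endothelial markers summed to 356 to 410 CPM with BO-112, wholly above the 243 to 298 CPM of vehicle tumours. Of these 10 markers, 1 was called higher and none lower, and 7 had a change above 0. The part of the endothelial markers in the 7 member changes was not tested. The median change of the 10 genes was 1.29 on the log2 scale, against -0.04 over all genes. Scaling by total reads called 932 genes higher and 1807 lower over the table, in place of 1353 and 763, and kept 6 of the 7 genes, without Slc39a14. With DMXAA, only Ftl1 was called, where 1.25% of all genes were called and 1.08% rose. The 8 inflammatory monocyte markers summed to 1441 to 2687 CPM with DMXAA, wholly below the 2873 to 3451 CPM of vehicle tumours. Taken singly, 3 of the 8 were called higher with DMXAA and none lower, so the sum does not describe each marker. The part of these markers in the levels of the 10 genes was not tested. The median of the 10 genes was 0.79, against 0.01 over all genes, and 4 of them had DMXAA tumours wholly above vehicle tumours, where 6.52% of all genes did. With both agents, Fth1, Ftl1 and Hmox1 rose, where 2.67% of all genes were called and 2.49% rose. The median of the 10 genes was then 1.12, against -0.01, and 8 had groups that did not overlap, where 9.92% of all genes did in this direction. The 3 comparisons share the same 3 vehicle tumours.

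**Figure D1:**
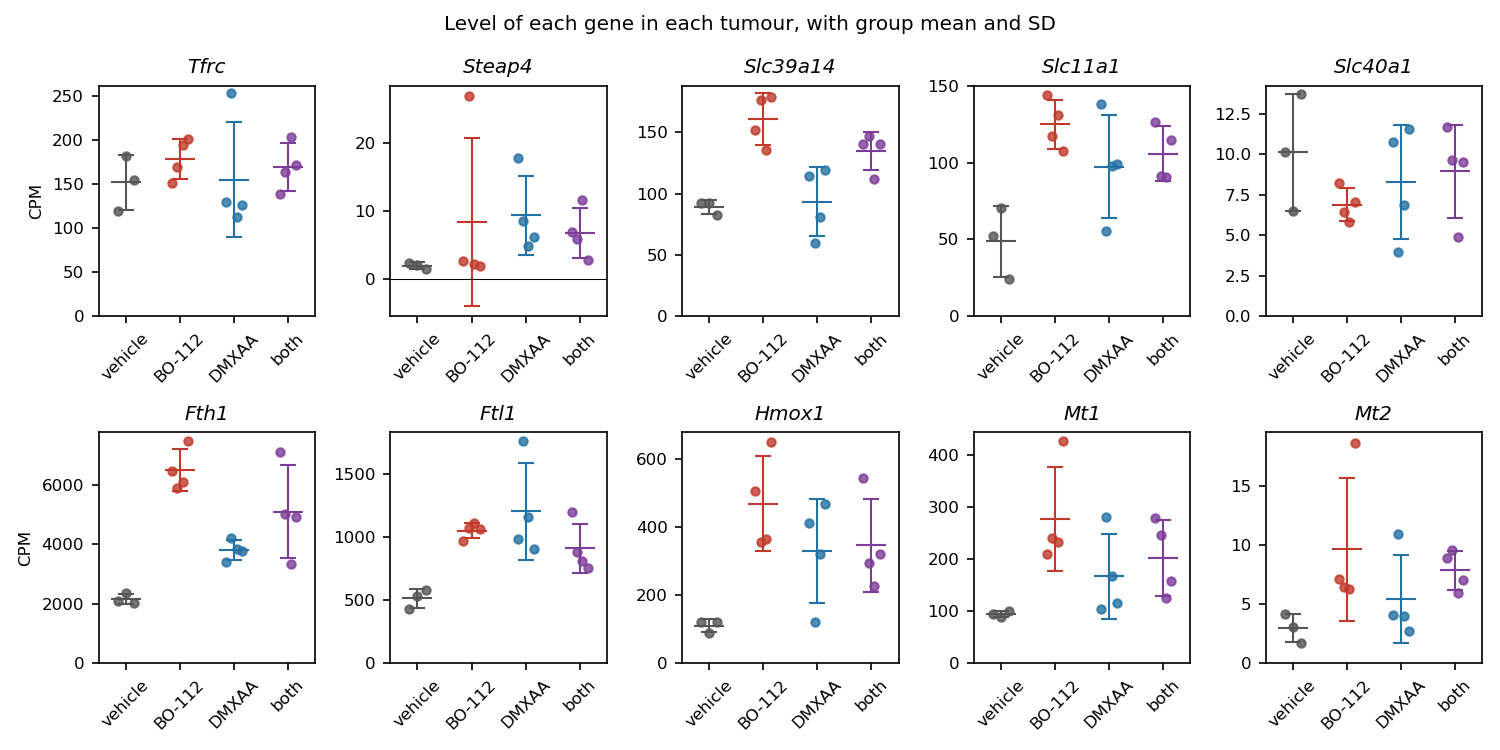
CPM of each of the 10 genes in every tumour (points) by group, on linear axes that include 0, with the mean (long dash) and SD (bar) of each group; vehicle n = 3, others n = 4. The 4 BO-112 points lie above the 3 vehicle points for Fth1, Ftl1, Hmox1, Mt1, Mt2, Slc11a1 and Slc39a14.

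Per kilobase of its principal transcript, Fth1 was the most abundant of the 10 genes in vehicle tumours, at 2316 CPM per kb. Ftl1 followed at 526, Mt1 at 171, Hmox1 at 68.9, Tfrc at 31.1, Slc11a1 at 21, Slc39a14 at 18.1, Mt2 at 5.77, Slc40a1 at 3.00 and Steap4 at 0.633 CPM per kb. The distance between related genes depended on the length used: Fth1 stood 4.40-fold above Ftl1 with principal transcripts of 929 and 968 bases, and 1.63-fold with the union of all exons. Mt1 stood 29.6-fold above Mt2 with principal transcripts and 15-fold with the union of exons.

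Fth1 encodes the ferritin heavy chain, which oxidises iron as it enters the shell. Its level was 2080, 2346 and 2027 CPM in the vehicle tumours, and 6494, 5906, 6134 and 7519 CPM with BO-112. With DMXAA it was 3411, 4211, 3845 and 3785 CPM, and with both agents 7150, 5048, 3331 and 4942 CPM. All 12 treated tumours lay above all vehicle tumours, BO-112 and DMXAA tumours did not overlap, and tumours with both agents overlapped each of these groups. The group means were 2151 ± 171 (SD, n = 3) for vehicle, 6513 ± 713 (SD, n = 4) for BO-112, 3813 ± 327 (SD, n = 4) for DMXAA and 5118 ± 1566 CPM (SD, n = 4) for both. Fth1 rose with BO-112 by 1.59 ± 0.20 on the log2 scale (3.02-fold, adjusted p = 8.99e-05). With both agents it rose by 1.20 ± 0.20 (2.30-fold, adjusted p = 0.00265). The change with DMXAA was 0.82 ± 0.20, with a 95% interval of 0.40 to 1.25, and missed the threshold (adjusted p = 0.0569). The first of these calls was kept under all 15 omissions of a library and all 10 other settings tried, and so was the second.

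Ftl1 encodes the ferritin light chain, which helps the iron core to form. It stood at 425, 529 and 574 CPM in vehicle tumours, 962, 1066, 1108 and 1057 CPM with BO-112, 980, 1760, 1157 and 905 CPM with DMXAA, and 1192, 877, 809 and 754 CPM with both agents. Every treated tumour lay above every vehicle tumour, and the 3 treated groups overlapped each other. DMXAA tumour 2 was the highest of all 15. Ftl1 rose by 1.05 ± 0.21 on the log2 scale with BO-112 (2.07-fold, adjusted p = 0.00356), by 1.20 ± 0.21 with DMXAA (2.29-fold, adjusted p = 0.0129) and by 0.82 ± 0.21 with both agents (1.77-fold, adjusted p = 0.0493). The Ftl1 transcript is short, and the 2 DMXAA libraries in which genes of short exon length stood high included the highest value. Without DMXAA tumours 2 and 3 the DMXAA change was 0.90 (adjusted p = 0.00953), and with the length trend removed from each library it was 1.02 (adjusted p = 0.00433). It was 1.07 and no longer called without vehicle tumour 1 (adjusted p = 0.0876), and 1.35 and not called without the 4 libraries with muscle RNA (adjusted p = 0.133). With the compared groups alone it stayed 1.20 and was not called (adjusted p = 0.234), where 4 genes of the table were called. The call for both agents was kept in 3 of 15 omissions of a library, those of DMXAA tumours 1, 2 and 4, with values of 0.68 to 0.91 over all omissions (adjusted p up to 0.248). It was also lost with median-of-ratios scaling at 0.81 (adjusted p = 0.0532) and without the muscle libraries at 0.85 (adjusted p = 0.191). Ftl1 has pseudogene copies: Ftl1-ps1, Ftl1-ps2 and Ftl2-ps reached at most 4.04, 1.35 and 0.734 CPM, and how reads that fit several copies were counted is not given in the sources used here. The gene Gm10252 overlaps Ftl1 on the opposite strand and averaged 0.484 CPM.

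The ferritin chains had different orders of group means. For Fth1 the order was BO-112, both agents, DMXAA and vehicle, and the neighbours that did not overlap were DMXAA and vehicle. For Ftl1 it was DMXAA (1201 ± 388 CPM), BO-112 (1048 ± 61.3 CPM), both agents (908 ± 196 CPM) and vehicle (509 ± 76.2 CPM), and again the last neighbours alone did not overlap. The ratio of Fth1 to Ftl1 CPM was 4.89, 4.44 and 3.53 in vehicle tumours and 6.75, 5.54, 5.54 and 7.11 with BO-112. It was 3.48, 2.39, 3.32 and 4.18 with DMXAA, and 6.00, 5.76, 4.12 and 6.55 with both agents. The ratio was above every vehicle value in each BO-112 tumour and below every BO-112 value in each DMXAA tumour, while DMXAA and vehicle tumours overlapped. Between BO-112 and DMXAA tumours, Fth1 was higher with BO-112 by 0.77 ± 0.18 (1.71-fold, adjusted p = 0.0111), and for Ftl1 the difference was -0.15 ± 0.19 with a 95% interval of -0.56 to 0.26 (adjusted p = 0.579). The sign of the Ftl1 difference turned to 0.15 without DMXAA tumours 2 and 3 and to 0.16 with the length trend removed. The Fth1 difference was 0.70 and not called without the 4 libraries with muscle RNA (adjusted p = 0.123).

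Hmox1 encodes haem oxygenase 1, the inducible enzyme that opens haem and releases its iron. It was measured at 118, 85.4 and 120 CPM in vehicle tumours and at 504, 355, 363 and 649 CPM with BO-112. The DMXAA tumours held 411, 118, 319 and 465 CPM, and tumours with both agents 542, 293, 226 and 320 CPM. BO-112 tumours and tumours with both agents lay wholly above vehicle tumours, whereas DMXAA tumour 2 fell within the vehicle range. Hmox1 rose by 2.08 ± 0.40 with BO-112 (4.24-fold, adjusted p = 0.00283) and by 1.61 ± 0.40 with both agents (3.06-fold, adjusted p = 0.0429). The DMXAA change of 1.45 ± 0.40 was not called (adjusted p = 0.0996), and without DMXAA tumours 2 and 3 it was 2.03 and passed (adjusted p = 0.0136). Without the 4 libraries with muscle RNA, which leaves 11 tumours and 1090 genes called over the table against 2116, the BO-112 change was 1.87 and not called (adjusted p = 0.061). The call for both agents was kept in 5 of 15 omissions of a library, those of BO-112 tumour 4, DMXAA tumours 1, 2 and 4 and tumour 3 with both agents, with values of 1.37 to 1.79 over all omissions (adjusted p up to 0.16). It was lost with scaling by total reads at 1.55 (adjusted p = 0.1), with the length trend removed at 1.63 (adjusted p = 0.0743) and without the muscle libraries at 1.45 (adjusted p = 0.25).

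Mt1 encodes metallothionein 1. Its level was 94.0, 87.6 and 99.8 CPM in vehicle tumours, 209, 241, 232 and 427 CPM with BO-112, 103, 281, 166 and 114 CPM with DMXAA and 279, 246, 125 and 157 CPM with both agents. All treated tumours lay above vehicle tumours, BO-112 tumour 4 was the highest, and DMXAA tumours 1 and 4 lay just above the vehicle range. The group means were 93.8 ± 6.11 CPM (SD, n = 3) for vehicle and 277 ± 101, 166 ± 81.7 and 202 ± 72.4 CPM (SD, n = 4 each) for BO-112, DMXAA and both agents. Mt1 rose with BO-112 by 1.50 ± 0.34 (2.84-fold, adjusted p = 0.00897). The change was 0.71 ± 0.34 with DMXAA (95% interval -0.02 to 1.44, adjusted p = 0.284) and 1.03 ± 0.34 with both agents (95% interval 0.30 to 1.76, adjusted p = 0.167), and neither was called. The value for both agents was 1.06 and passed with the length trend removed (adjusted p = 0.0419). Without the 4 libraries with muscle RNA the BO-112 change was 1.57 and not called (adjusted p = 0.0571).

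Mt2 encodes the second metallothionein, and its gene lies beside Mt1. It was measured at 4.09, 3.06 and 1.69 CPM with vehicle, 7.10, 6.46, 6.22 and 18.7 CPM with BO-112, 4.07, 11, 3.98 and 2.68 CPM with DMXAA and 8.91, 9.55, 5.88 and 6.99 CPM with both agents. BO-112 tumours and tumours with both agents did not overlap vehicle tumours, and 3 of the 4 DMXAA tumours lay within the vehicle range. Mt2 rose with BO-112 by 1.63 ± 0.46 (3.09-fold, adjusted p = 0.033). The group means were 2.95 ± 1.21 CPM (SD, n = 3) for vehicle and 9.63 ± 6.08, 5.43 ± 3.75 and 7.83 ± 1.69 CPM (SD, n = 4 each) for BO-112, DMXAA and both agents. Its change with both agents was 1.48 ± 0.46 (95% interval 0.49 to 2.47, adjusted p = 0.138) and with DMXAA 0.76 ± 0.46 (95% interval -0.23 to 1.75, adjusted p = 0.363). The value for both agents passed in 4 of the 10 other settings, for example with the length trend removed at 1.51 (adjusted p = 0.0353). The BO-112 call was lost when vehicle tumour 2 or 3 or BO-112 tumour 1 or 4 was left out, with changes of 1.70, 1.27, 1.72 and 1.25 and adjusted p-values of 0.0715, 0.163, 0.0521 and 0.0901. It was also lost without the 4 libraries with muscle RNA, at 1.79 (adjusted p = 0.14). The gene Gm45774 overlaps Mt2 on the opposite strand and averaged 0.839 CPM over all tumours. Whether reads were counted by strand is not given in the sources used here, so reads of Mt2 and Gm45774 may not be separable.

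The ratio of Mt1 to Mt2 CPM spread widely within groups: 23.0, 28.6 and 59.0 in vehicle tumours, 29.4, 37.3, 37.3 and 22.8 with BO-112, 25.2, 25.6, 41.7 and 42.6 with DMXAA, and 31.3, 25.8, 21.3 and 22.4 with both agents. These ranges overlapped among all 4 groups. BO-112 tumour 4 held the highest level of Mt1, Mt2, Hmox1 and Fth1 among the 15 tumours. It also held the highest sum of the 6 measured erythroid markers, 240 CPM, against 11.5 to 17.9 CPM in vehicle tumours and 11.5 to 99.6 CPM in the other BO-112 tumours. The part of red cell RNA in these levels was not tested. Without BO-112 tumour 4, Fth1, Hmox1 and Mt1 were still called in BO-112 against vehicle, and Mt2 was not.

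Slc11a1 encodes NRAMP1, which moves iron and other divalent metals out of the phagosomes of macrophages and neutrophils, and C57BL/6 mice are known to carry a form with impaired function. It was measured at 52.1, 70.2 and 23.9 CPM in vehicle tumours, 144, 118, 131 and 108 CPM with BO-112, 138, 55.6, 97.7 and 98.9 CPM with DMXAA and 127, 91.5, 90.4 and 115 CPM with both agents. DMXAA tumour 2 overlapped the vehicle range and no other treated tumour did. Slc11a1 rose with BO-112 by 1.49 ± 0.32 (2.81-fold, adjusted p = 0.0061), and this call was kept under all 15 omissions of a library and all 10 other settings. It changed by 1.24 ± 0.32 with both agents (adjusted p = 0.053) and by 1.06 ± 0.32 with DMXAA (adjusted p = 0.126), and neither was called. The value for both agents passed in 4 of the 10 other settings, for example without the 4 libraries with muscle RNA at 1.57 (adjusted p = 0.0255). Beside these values, the 10 measured neutrophil markers summed to 138 to 191 CPM in vehicle tumours, 210 to 280 CPM with BO-112, 112 to 258 CPM with DMXAA and 161 to 385 CPM with both agents. Singly, 4 of these 10 markers were called higher with BO-112 and none lower. With DMXAA 2 were called higher and 1 lower, and with both agents 5 higher and none lower. Of all genes, 7.64%, 1.08% and 2.49% were called higher in these comparisons. The median log2 changes of the 10 markers were 1.73, 2.28 and 2.76, so the sum does not describe each marker. The summed macrophage markers overlapped between vehicle and BO-112 tumours, while 2 of the 12 were called higher and 2 lower with BO-112. The part of either cell type in the Slc11a1 level was not tested.

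Slc39a14 encodes ZIP14, a surface transporter that brings in zinc, manganese and iron that is not bound to transferrin. It was measured at 92.6, 92.0 and 82.6 CPM in vehicle tumours, 152, 177, 135 and 179 CPM with BO-112, 114, 59.4, 81.1 and 119 CPM with DMXAA and 141, 147, 112 and 141 CPM with both agents. BO-112 tumours lay above all vehicle and all DMXAA tumours, and DMXAA tumours lay on both sides of the vehicle range. Slc39a14 rose with BO-112 against vehicle by 0.84 ± 0.20 (1.80-fold, adjusted p = 0.0115). Against DMXAA it was higher with BO-112 by 0.83 ± 0.18 (1.78-fold, adjusted p = 0.00772). DMXAA against vehicle gave 0.02 ± 0.20 (95% interval -0.41 to 0.44, adjusted p = 0.972), and both agents against vehicle gave 0.60 ± 0.20 (95% interval 0.17 to 1.02, adjusted p = 0.173). The value for both agents passed in 4 of the 10 other settings, for example with the length trend removed at 0.57 (adjusted p = 0.0185). The BO-112 call against vehicle was lost without vehicle tumour 3 at 0.79 (adjusted p = 0.0565), with scaling by total reads at 0.69 (adjusted p = 0.0662) and without the 4 libraries with muscle RNA at 0.89 (adjusted p = 0.0696). The call against DMXAA was kept under all 15 omissions of a library, and was lost with the compared groups alone (adjusted p = 0.0561) and without the muscle libraries (adjusted p = 0.0596).

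Tfrc encodes transferrin receptor 1, whose messenger RNA is known to be stabilised when cells lack iron. It was measured at 120, 182 and 154 CPM in vehicle tumours, 152, 169, 194 and 201 CPM with BO-112, 129, 253, 112 and 126 CPM with DMXAA and 139, 164, 204 and 172 CPM with both agents. All 4 groups overlapped. The change was 0.25 ± 0.24 with BO-112 (95% interval -0.26 to 0.75), -0.03 ± 0.24 with DMXAA (-0.54 to 0.47) and 0.16 ± 0.24 with both agents (-0.34 to 0.67), with adjusted p-values of 0.57, 0.951 and 0.944. DMXAA tumour 2 held the highest Tfrc level, and without it Tfrc was higher with BO-112 than with DMXAA by 0.54 (adjusted p = 0.0219).

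Slc40a1 encodes ferroportin, the iron exporter of vertebrate cells. It was low, at 10.1, 6.51 and 13.7 CPM in vehicle tumours, 8.20, 6.46, 5.82 and 7.05 CPM with BO-112, 10.7, 3.96, 6.89 and 11.6 CPM with DMXAA and 11.7, 9.67, 4.86 and 9.54 CPM with both agents. The groups overlapped. Its change was -0.50 ± 0.37 with BO-112 (95% interval -1.29 to 0.28, adjusted p = 0.43), -0.34 ± 0.37 with DMXAA (adjusted p = 0.597) and -0.19 ± 0.37 with both agents (adjusted p = 0.971). Slc40a1 was the member whose point estimate was below 0 in all 3 comparisons with vehicle.

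Steap4 encodes a reductase of iron and copper ions that is known to be abundant in fat tissue. It was measured at 2.46, 2.03 and 1.51 CPM in vehicle tumours, 2.66, 26.8, 2.23 and 1.95 CPM with BO-112, 17.8, 8.49, 4.95 and 6.16 CPM with DMXAA and 6.91, 5.86, 11.6 and 2.79 CPM with both agents. DMXAA tumours and tumours with both agents lay wholly above vehicle tumours, while 3 of the 4 BO-112 tumours lay near or within the vehicle range. The change was 2.07 ± 0.75 with DMXAA (95% interval 0.47 to 3.68, adjusted p = 0.206), 1.62 ± 0.75 with both agents (95% interval 0.01 to 3.22, adjusted p = 0.43) and 1.10 ± 0.75 with BO-112 (95% interval -0.51 to 2.70, adjusted p = 0.394), and none was called. Without BO-112 tumour 2 the DMXAA change stayed 2.07 and passed the threshold (adjusted p = 0.0462), since that tumour enters the shared estimate of the spread. In the same fit Steap4 was lower with BO-112 than with DMXAA (-1.87, adjusted p = 0.0196). The adipocyte markers followed these values only in part. Their sum was 377 CPM in BO-112 tumour 2, 250 CPM in DMXAA tumour 1 and 137 CPM in tumour 3 with both agents. These tumours held the highest Steap4 of their treated groups. DMXAA tumour 2 held the highest sum of all, 407 CPM, at 8.49 CPM of Steap4. DMXAA tumour 4 held the lowest sum, 59.4 CPM, at 6.16 CPM of Steap4, above every vehicle tumour. Tumours 1 and 2 with both agents, at sums of 79.3 and 85.0 CPM, held 6.91 and 5.86 CPM of Steap4. BO-112 tumours 1 and 4, at sums of 76.7 and 81.0 CPM, held 2.66 and 1.95 CPM. The part of fat tissue RNA in the Steap4 level was not tested.

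**Figure D2:**
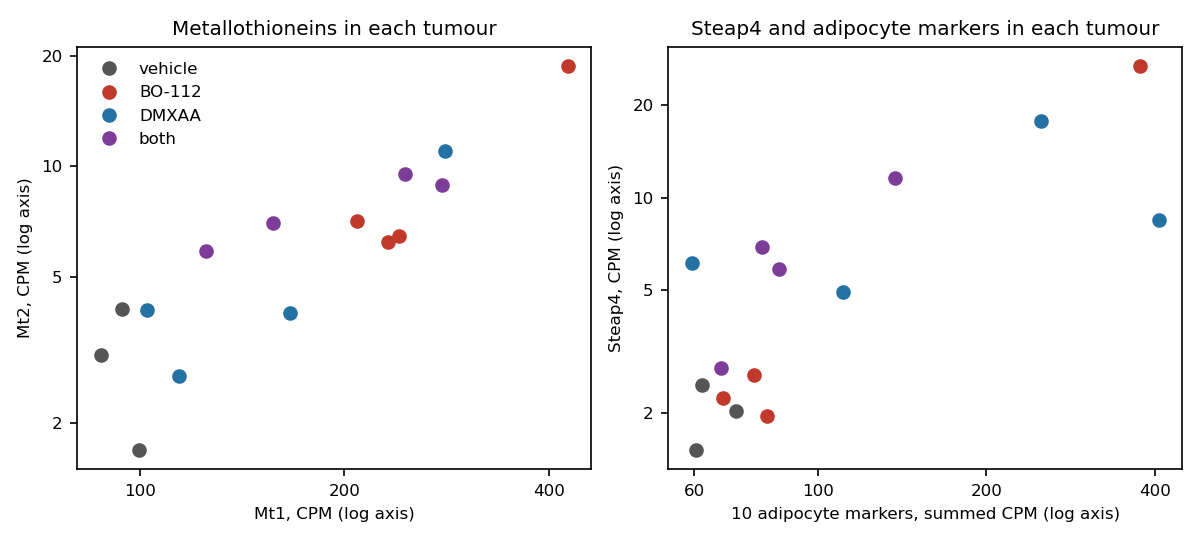
Each point is 1 of the 15 tumours, coloured by group, on log axes in CPM: Mt2 against Mt1 (left) and Steap4 against the summed level of 10 adipocyte markers (right). BO-112 tumour 4 lies at the top right of the left panel, at 427 CPM of Mt1 and 18.7 CPM of Mt2, and BO-112 tumour 2 at the top of the right panel, at 26.8 CPM of Steap4.

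**Figure D3:**
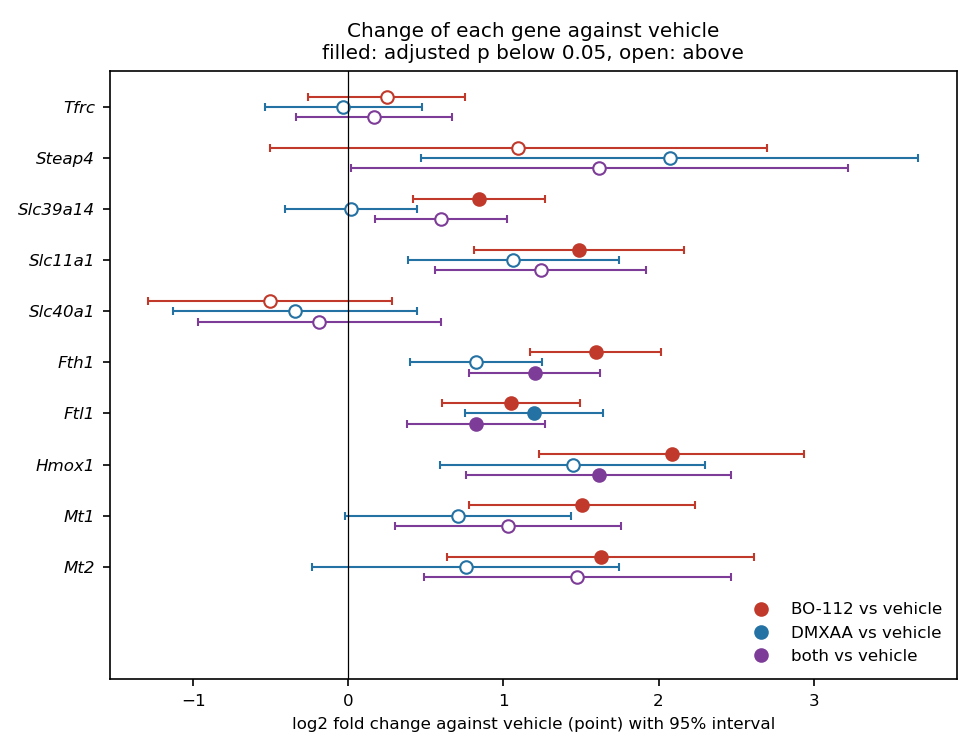
Log2 fold change with its 95% interval from limma for each of the 10 genes against vehicle, with BO-112, DMXAA or both agents; filled points passed an adjusted p of 0.05. There are 7 filled points for BO-112, 1 for DMXAA (Ftl1) and 3 for both agents (Fth1, Ftl1 and Hmox1).

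Tumours with both agents were also compared with tumours given a single agent. In tumours with both agents against BO-112 alone, none of the 10 genes was called by limma or by limma-voom, and 1 of them, Fth1, had an unadjusted p under 0.05. In this fit no gene of the table was called in this comparison (0%). That count depended on the fit: it was 362 (51 higher, 311 lower) with the compared groups alone, 313 with array quality weights, 206 without DMXAA tumours 2 and 3, 32 without DMXAA tumour 2, 16 with the length trend removed, 3 with scaling by total reads and 1 without tumour 1 with both agents. The Fth1 difference was -0.39 ± 0.18 with a 95% interval of -0.79 to -0.00 (adjusted p = 0.522), that of Hmox1 was -0.47 ± 0.37 (adjusted p = 0.781) and that of Mt1 was -0.47 ± 0.32 (adjusted p = 0.712). Against DMXAA alone, none was called by limma or limma-voom where 0.886% of all genes were called, and Slc39a14, at 0.58 ± 0.18 with a 95% interval of 0.19 to 0.97 (adjusted p = 0.116), had the only unadjusted p under 0.05. The count behind that share, 157 genes, was 1765 without DMXAA tumour 1 and 1504 without DMXAA tumour 4, where Slc39a14 was called. It was 5 without DMXAA tumour 3, 0 without tumour 1 or 2 with both agents and 47 without tumour 4 with both agents. It was 96 without vehicle tumour 1 and 71, 90, 75 and 85 without BO-112 tumours 1 to 4. It was 252 with the length trend removed, 7 without DMXAA tumours 2 and 3, 4 with the compared groups alone and 1 without the muscle libraries. Between the single agents, 2 of the 10 genes were called, Fth1 and Slc39a14, both higher with BO-112, where 21.4% of all genes were called and 11.2% were higher with BO-112. These 2 were also the members whose groups did not overlap, where 12.1% of all genes had BO-112 tumours wholly above DMXAA tumours. The differences in Mt1 and Mt2 between the single agents, 0.80 ± 0.32 (adjusted p = 0.08) and 0.87 ± 0.43 (adjusted p = 0.143), were not called. They were 1.12 and 1.34 and passed with the length trend removed (adjusted p = 0.00647 and 0.0141), and without DMXAA tumour 2 they were 1.09 and 1.28 and passed (adjusted p = 0.0206 and 0.028).

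The interaction compares the step from BO-112 to both agents with the step from vehicle to DMXAA. It was below 0 for 9 of the 10 genes, with a median of -1.20 against 0.02 over all genes, and 2 genes were called, both lower, where 1.35% of all genes were called and 1.15% were lower. For Ftl1 the interaction was -1.43 ± 0.28 (95% interval -2.03 to -0.82, adjusted p = 0.026): the single-agent changes add up to 2.25 on the log2 scale, and the change with both agents was 0.82. For Fth1 it was -1.22 ± 0.27 (95% interval -1.80 to -0.64, adjusted p = 0.0393), where the single changes add up to 2.42 and both agents gave 1.20. Hmox1 had a larger value, -1.92 ± 0.54, that was not called (adjusted p = 0.103), with a sum of 3.53 against 1.61; it was -2.50 and passed without DMXAA tumours 2 and 3 (adjusted p = 0.0112). The Slc11a1 value was -1.31 ± 0.43 (adjusted p = 0.171) and the Mt1 value -1.18 ± 0.46 (adjusted p = 0.259). The exception was Slc40a1, at 0.66 ± 0.50 (adjusted p = 0.551). The Ftl1 call was kept in 9 of 15 omissions of a library, with values of -1.56 to -1.23, and was lost without vehicle tumour 1, BO-112 tumour 2, 3 or 4, or tumour 3 or 4 with both agents (adjusted p up to 0.091). The Fth1 call was kept in 4 of 15, without vehicle tumour 2, DMXAA tumour 1 or 2, or tumour 1 with both agents, with values of -1.40 to -1.03 over all omissions (adjusted p up to 0.116). Without the 4 libraries with muscle RNA the values were -1.62 for Ftl1 (adjusted p = 0.122) and -1.35 for Fth1 (adjusted p = 0.181). With the replicate number as a block the Fth1 value was -1.20 and was not called (adjusted p = 0.0559).

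**Figure D4:**
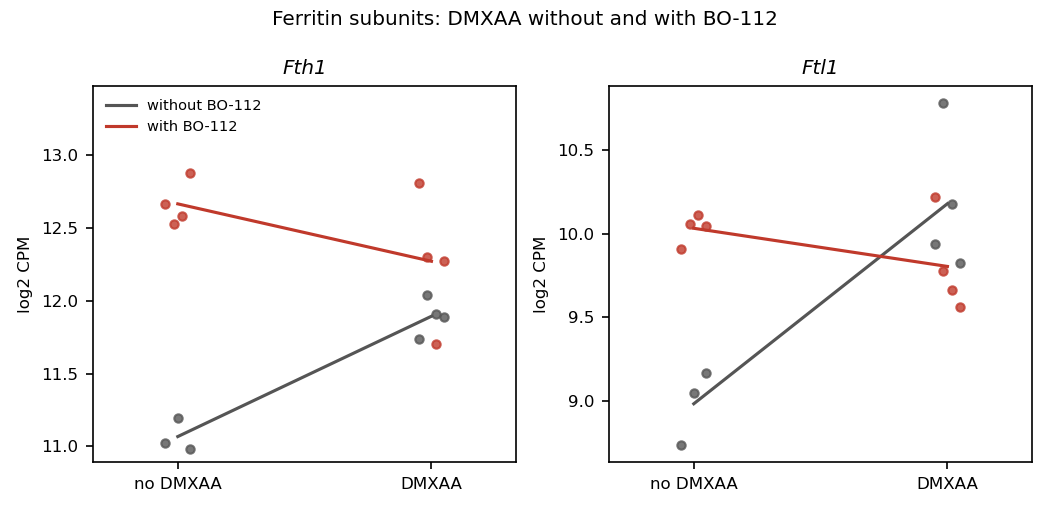
Log2 CPM of Fth1 (left) and Ftl1 (right) in tumours without and with DMXAA; points are tumours and lines join group means, grey without BO-112 and red with BO-112. For both genes the grey line goes up with DMXAA (by 0.82 and 1.20) and the red line goes down (-0.39 and -0.23, neither called).

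Other genes of these pathways were counted from 4 lists, whose shares read against the 11.9% (7.64% higher, 4.31% lower) of all genes called with BO-112, 1.25% with DMXAA and 2.67% with both agents. Of 24 measured genes of iron uptake, storage and export, 5 rose and 5 fell with BO-112, with a median of 0.14 against -0.04 over all genes, 1 rose with DMXAA, and 4 rose and 1 fell with both agents. The 5 calls with both agents were 2 without vehicle tumour 3, and 3 without BO-112 tumour 1 or without tumour 1, 2 or 4 with both agents. Members of the 10 are not among these 24. Lcn2, the siderophore-binding lipocalin, rose by 5.67 with BO-112 (adjusted p = 0.000156), by 5.84 with DMXAA (adjusted p = 0.00227) and by 6.69 with both agents (adjusted p = 0.000166). Its level was 0.372 ± 0.274 CPM (SD, n = 3) in vehicle tumours and 21.7 ± 25.0, 19.8 ± 14.7 and 29.7 ± 7.46 CPM (SD, n = 4 each) in the treated groups. Cd163, the macrophage receptor for haemoglobin bound to haptoglobin, fell by 4.71 with BO-112 (adjusted p = 0.000151) and by 3.22 with both agents (adjusted p = 0.00901), from 4.89 ± 3.67 CPM with vehicle to 0.184 ± 0.116 and 0.505 ± 0.276 CPM, levels that rest on few reads. Cp, the ferroxidase ceruloplasmin, rose by 1.55 ± 0.25 with BO-112 (adjusted p = 0.000724) and by 1.27 with both agents (adjusted p = 0.00927). Slc25a37, mitoferrin 1, rose by 1.04 ± 0.15 (adjusted p = 0.000261) and 0.61 (adjusted p = 0.0366). Named after their values were seen, Fbxl5 and Slc25a28 also rose with BO-112, and Hfe, Slc39a8, Steap3 and Trf fell, Slc39a8 by 1.11 (adjusted p = 0.00506).

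Of 21 genes of haem synthesis, transport and breakdown, 3 rose with BO-112, 1 with DMXAA and 2 with both agents, and none fell. With BO-112 this is near the 11.9% of all genes called either way, of which the 7.64% that rose are the share in the same direction. The median change of the list was 0.01. The BO-112 count was 1 without vehicle tumour 1 and 5 without DMXAA tumour 2. The DMXAA count was 0 without vehicle tumour 1 or 3, 2 without BO-112 tumour 2 or tumour 1 with both agents, and 3 without DMXAA tumour 4. The count with both agents was 1 in 8 of the 15 omissions of a library, among them each vehicle tumour. Spic, the transcription factor of iron-recycling macrophages, rose in all 3 comparisons, by 4.48 ± 0.53 with BO-112 (adjusted p = 5.6e-05), by 2.89 ± 0.53 with DMXAA (adjusted p = 0.017) and by 3.90 with both agents (adjusted p = 0.000631). It went from 0.220 ± 0.0992 CPM (SD, n = 3) in vehicle tumours, where few reads were counted, to 4.61 ± 0.323 CPM (SD, n = 4) with BO-112. The other calls were Flvcr1, a haem exporter (0.47 with BO-112, adjusted p = 0.00881, and 0.44 with both agents, adjusted p = 0.039), and Alas1, the first enzyme of haem synthesis (0.65 with BO-112, adjusted p = 0.0144). Of 19 measured genes of zinc transport and metal sensing, Slc30a1, the zinc exporter known to respond to zinc together with the metallothioneins, rose by 1.05 ± 0.18 with BO-112 (adjusted p = 0.00113) and 0.70 with both agents (adjusted p = 0.0497). Slc30a4 rose by 0.56 with BO-112 (adjusted p = 0.00524), so 2 of the 19 were called with BO-112 (4 without DMXAA tumour 2). Both rose, and the count is again near the 11.9% of all genes called either way, where 7.64% rose. None of the 19 was called with DMXAA by limma or limma-voom, where 1 had an unadjusted p under 0.05. The Slc30a1 call with both agents was lost under many settings, and the number of zinc genes called there was 0 to 1.

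Of 20 targets of NRF2, the factor that drives Hmox1 and ferritin genes under oxidative stress, 6 rose with BO-112, 2 with both agents and none with DMXAA, where limma-voom also called none and 6 had an unadjusted p under 0.05. Slc7a11, the cystine importer, rose by 1.58 ± 0.23 with BO-112 (adjusted p = 0.000341) and by 1.13 with both agents (adjusted p = 0.0129), from 44.6 ± 12 CPM (SD, n = 3) to 130.2 ± 9.44 and 96.2 ± 16.3 CPM (SD, n = 4 each). Nfe2l2, which encodes NRF2 itself, rose by 0.81 ± 0.11 (adjusted p = 0.000227) and 0.52 (adjusted p = 0.0185). Srxn1 and Sqstm1 rose by 0.68 ± 0.16 (adjusted p = 0.0137) and 0.74 ± 0.20 (adjusted p = 0.0274) with BO-112. The count with both agents was 0 without vehicle tumour 1, 1 without vehicle tumour 3 or tumour 2 with both agents, and 4 without DMXAA tumour 2. The DMXAA count was 2 without DMXAA tumour 1 or 2 and 1 without tumour 2 with both agents. The median of the 20 genes was 0.32 with BO-112, 0.33 with DMXAA and 0.28 with both agents. The BO-112 count of 6 was 3 without vehicle tumour 1 or 3 or BO-112 tumour 1, 2 or 3. Over all settings it ran from 2, with scaling by total reads or without the 4 libraries with muscle RNA, to 12 without DMXAA tumours 2 and 3.

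The genes whose pattern over the 15 tumours was most like each member were taken by the smallest root mean square difference of standardised log2 CPM, where 0 is an identical pattern. They are a description over tumours that share treatment groups and library effects. For Fth1 they were Gla (0.181), Ubap1 (0.215) and Ninj1 (0.227), for Ftl1 Prdx1 (0.310), Esd (0.340) and Cyba (0.362), and for Hmox1 Srxn1 (0.316), Procr (0.345) and Adm (0.372). For Mt1 they were Smim3 (0.295), Ctsz (0.360) and Neu1 (0.408), and for Mt2 Wsb1 (0.433), Ccdc173 (0.485) and Bnip3 (0.487). Slc11a1 was nearest to Sirpb1b (0.238), Apobec1 (0.261) and Ptk2b (0.300), and Slc39a14 to Gnptab (0.201), Fndc3a (0.217) and Dop1b (0.218). Steap4 was nearest to Lrg1 (0.394), Hpx (0.409) and the adipocyte gene Adipoq (0.469). Tfrc and Slc40a1 had no close neighbour, with Sirt1 (0.570), Yes1 (0.598) and Tmx3 (0.605) for Tfrc and Dhtkd1 (0.575), Stk36 (0.588) and Ttll1 (0.606) for Slc40a1. Among the members themselves the nearest pairs were Mt1 with Mt2 and Mt1 with Fth1, both at 0.492.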

How the data were processed

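Polyadenylated RNA of 15 tumours was sequenced from stranded libraries, per the labels' protocols. STAR, edgeR, limma and the mm39 genome are named in the submitters' processing notes, and versions and the counting step are not given in the sources used here. The deposited table holds log2 CPM, made by the authors with 0.5 reads added and scaled library sizes. Whole reads were recovered for 100% of values (tolerance 1e-06). The 15 per-sample columns of a table without sample names were not used.

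Symbols and transcript lengths came from GENCODE release M21, which lies on another build and named 17636 genes, leaving 76 unnamed. The 10 genes and the gene lists were chosen with earlier results of these data known. R 4.3.3 and limma 3.58.1 fitted 1 mean per group over all 15 libraries, with trend and robust moderation, with Benjamini-Hochberg adjustment over 17712 genes. The fit was tested on simulated data. The labels call the tumours biological replicates. Same-numbered tumours of different groups did not deviate together (mean correlation 0.0152 over 21 pairs), so no block was used in the comparisons reported.

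All 10 genes are named in every comparison with vehicle. Of each list, up to 4 genes past the threshold with the smallest adjusted p and up to 2 in the other direction are named. The 3 genes most like each member were taken among those with a mean of at least 1 CPM, with clones and pseudogenes left out. Alternatives were median-of-ratios and total-read scaling, a filter of 1 CPM in 4 libraries, limma-voom, run on whole reads, a replicate block, the compared groups alone, array quality weights, removal of the length trend, and omission of each library or of the 4 libraries with muscle RNA. Omission of DMXAA tumours 2 and 3 together was chosen after seeing the data.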

Additional observations from a re-analysis of the deposited data

Results flagged for a closer look

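In 3 cases a single tumour stood apart from the other 3 of its group, among 30 groups of 4 examined for the 10 genes, where chance gives about 1 in 20. Steap4 was high in BO-112 tumour 2, at 4.75 on the log2 CPM scale (26.8 CPM), against 1.95 to 2.66 CPM in the other BO-112 tumours. Mt2 was high in BO-112 tumour 4, at 4.23 on the log2 CPM scale (18.7 CPM), against 6.22 to 7.10 CPM. Slc39a14 was low in tumour 3 with both agents, at 6.81 on the log2 CPM scale (112 CPM), against 141 to 147 CPM.

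For the ferritin chains the change with DMXAA differed in the main fit by whether BO-112 was present. When 1 library was left out, the Ftl1 call was kept in 9 of 15 fits and the Fth1 call in 4 of 15. Neither was kept without the 4 libraries with muscle RNA. The limma interaction was -1.43 for Ftl1 (adjusted p = 0.026) and -1.22 for Fth1 (adjusted p = 0.0393). For Ftl1 the step with DMXAA was 1.20 from vehicle and -0.23 from BO-112, and for Fth1 these steps were 0.82 and -0.39. Only the Ftl1 step from vehicle was called.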

How the results depend on the processing

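The number of the 10 genes called moved under several settings. For BO-112 against vehicle 7 were called, 3 without the 4 libraries with muscle RNA (Fth1, Ftl1 and Slc11a1) and 5 to 7 when 1 library was left out. For DMXAA 1 was called, 0 with the groups alone or without the muscle libraries, 2 with array weights or without DMXAA tumours 2 and 3, and 0 to 3 when 1 library was left out (0 without vehicle 1, 3 without DMXAA 2). For both agents 3 were called, 5 with the groups alone, 7 with array weights, 6 with the length trend removed or without DMXAA 2 and 3, 2 with median-of-ratios or total-read scaling or without the muscle libraries, and 1 to 6 when 1 library was left out. That count was 1 (Fth1) without vehicle 1, vehicle 3, BO-112 1, 2 or 3, DMXAA 3, or tumour 1, 2 or 4 with both agents, and 6 without DMXAA 2. For BO-112 against DMXAA 2 were called, 1 with the groups alone, 4 with array weights or the length trend removed, 0 without the muscle libraries, and 2 to 5 when 1 library was left out. Both agents against DMXAA gave 0 to 1 and against BO-112 gave 0 when 1 library was left out. For the interaction 2 were called, 1 with total-read scaling, 0 without the muscle libraries, 4 without DMXAA 2 and 3, and 0 to 3 when 1 library was left out. The causes were not tested, and omissions leave fewer samples. Total-read scaling moved the median BO-112 change of all genes from -0.04 to -0.20.

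With the replicate number as a block the counts were 7, 1 and 3 against vehicle, 0 and 0 for both agents against each single agent, 2 between the single agents and 1 (Ftl1) for the interaction. The numbers only name tumours, and the block turned Slc39a14 with DMXAA to -0.055.

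Values that turned sign were not called, and they reached -0.42 for Hmox1. In DMXAA against vehicle, Slc40a1 was 0.16 with array weights and 0.20 without DMXAA 2 and 3. Tfrc was 0.052 with the length trend removed, 0.39 without the muscle libraries and -0.29 to 0.11 when 1 library was left out. Slc39a14 was -0.11 with total-read scaling, -0.058 without the muscle libraries and -0.12 to 0.22 when 1 library was left out. In both agents against vehicle, Slc40a1 was 0.0046 with array weights and -0.47 to 0.084 when 1 library was left out. In both agents against BO-112, Tfrc was 0.0056 with total-read scaling and -0.18 to 0.0093 when 1 library was left out, and Mt2 was 0.020 with array weights and -0.31 to 0.22. In both agents against DMXAA, Slc40a1 was -0.16 with array weights, -0.025 with the length trend removed, -0.39 without DMXAA 2 and 3 and -0.16 to 0.43 when 1 library was left out. Slc11a1 was -0.019 and Hmox1 -0.23 with array weights, and without DMXAA 2 and 3 they were -0.16 and -0.42. When 1 library was left out they ran from -0.071 to 0.37 and from -0.27 to 0.39. Tfrc there was -0.089 without the muscle libraries. In BO-112 against DMXAA, Ftl1 was 0.082 with array weights, 0.16 with the length trend removed, 0.15 without DMXAA 2 and 3 and -0.27 to 0.053 when 1 library was left out, and Slc40a1 was -0.48 to 0.039. The Tfrc interaction was 0.16 with total-read scaling, 0.12 with array weights, 0.15 without DMXAA 2 and 3 and -0.19 to 0.21 when 1 library was left out.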
